A study of Mus musculus with 10 samples.

Results

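The 6 genes described here are Tmsb4x, Tmsb10, Actb, Actg1, Cfl1 and Pfn1, which encode thymosin beta 4, thymosin beta 10, beta-actin, gamma-actin, cofilin 1 and profilin 1. They were selected by gene name, and all 6 were found among the 15899 genes of the deposited matrix. The names had been put together with earlier results of these libraries in view, so the values of the 6 genes are given as a description and without p-values. RNA was sequenced after anti-FLAG immunoprecipitation from adult neural stem cell cultures, grown as neurospheres with EGF and FGF from the subependymal zone of mice aged 10 weeks. Mex3aFLAG/FLAG cultures, which express endogenous MEX3A with a FLAG peptide at its C-terminus from both alleles, were set against Mex3a+/+ cultures of the same background, which carry no tag and measure nonspecific binding to the antibody and beads. Cells were crosslinked with formaldehyde before lysis in 2 libraries of each genotype and were left native in 3 libraries of each genotype. The groups are called FLAG crosslinked, WT crosslinked, FLAG native and WT native below. The methods of the study call the replicates of each genotype biological replicates, and the labels do not say whether they came from separate animals.

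Actin exists in cells as a monomer and as a filament. Beta-thymosins bind the monomer and hold it in reserve, profilin carries monomers to growing filament ends, and cofilin severs filaments and speeds the loss of subunits from them. Beta- and gamma-actin are the cytoplasmic actins of nonmuscle cells, and their mRNAs, like those of beta-thymosins, cofilin 1 and profilin 1, are abundant in most cell types. MEX3A is an RNA-binding protein with KH domains, and the immunoprecipitation asks which RNAs are recovered with it.

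The genes are compact. In GRCm38, Tmsb4x (ENSMUSG00000049775) lies at chrX:167207093-167209315, Tmsb10 (ENSMUSG00000079523) at chr6:72957347-72958748, Actb (ENSMUSG00000029580) at chr5:142903115-142906754, Actg1 (ENSMUSG00000062825) at chr11:120345690-120348542 and Pfn1 (ENSMUSG00000018293) at chr11:70651850-70654644, all on the minus strand. Cfl1 (ENSMUSG00000056201) lies at chr19:5490455-5495201 on the plus strand. The principal mRNA of Tmsb10 has 690 nt, that of Tmsb4x 768 nt, that of Pfn1 861 nt, that of Actb 1920 nt, that of Actg1 1952 nt and that of Cfl1 2354 nt, against a median of 3161 nt over the 12207 protein-coding genes with an annotated mRNA. Tmsb10 and Tmsb4x are shorter than all but 1.99% and 2.85% of these genes, whereas Cfl1 is shorter than all but 32.32%. Compared with most genes, a large share of each is exon in some annotated transcript. The exons of all annotated transcripts together, which can include parts that are intron in the principal mRNA, set this exonic share. It was 59.91% for Cfl1, 61.67% for Tmsb4x, 73.6% for Actb, 86.05% for Pfn1, 91.01% for Tmsb10 and 93.17% for Actg1. The median over protein-coding genes was 16.87%. At least 91.58% of protein-coding genes had a lower exonic share than any of the 6.

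Both related pairs of genes differ enough in sequence for reads to be told apart between partners. The first 30 coding bases are shown to let the partners be compared, with the bases that differ within each pair in capitals.
Actb: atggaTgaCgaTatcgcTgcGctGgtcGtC
Actg1: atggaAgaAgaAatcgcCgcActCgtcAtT
Tmsb4x: atgTcTgacaaAccCgaTatggCTgaGatc
Tmsb10: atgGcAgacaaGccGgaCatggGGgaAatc
Each pair differed at 8 of these 30 bases. The coding sequences of Actb and Actg1, of 1128 nt each, were identical at 88.65% of positions and shared no identical stretch longer than 62 bases. Those of Tmsb4x and Tmsb10, of 135 nt each, were identical at 70.37% of positions and shared no stretch longer than 10 bases. Both longest stretches are below the read length of 75 bases, so no read within these coding sequences fits both partners exactly.

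The reads of some of the 6 genes cannot be placed uniquely for another reason, which is the presence of copies elsewhere in the genome. Of the 75-base windows of the longest annotated Actg1 transcript, 1790 of 1878 (95.31%) also occurred at another place in GRCm38, on either strand. The share was 37.99% for Tmsb10 (234 of 616 windows), 12.24% for Cfl1 (279 of 2280) and 3.58% for Actb (66 of 1846), and no window of Tmsb4x (0 of 790) or Pfn1 (0 of 1923) recurred. The values of Actg1 and Tmsb10 are therefore uncertain, because the treatment of reads with several matches in counting is not given in the sources used here. All 626 windows that lie in the 3' UTR of Actg1 recurred, and the windows that did not recur lay in its 5' UTR and in a short stretch of the coding sequence.

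**Figure D1:**
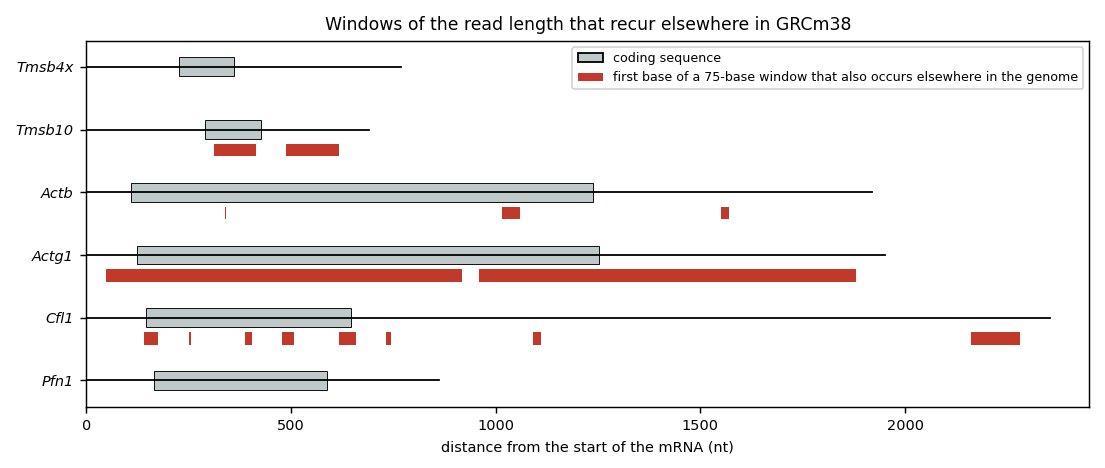
The plot of repeated windows shows the principal mRNA of each gene as a line from its start (x axis, nt), the coding sequence as a grey box, and in red the first base of each 75-base window with an exact match elsewhere in GRCm38. Red covers nearly the whole Actg1 mRNA, part of the coding sequence and of the 3' UTR of Tmsb10, and short stretches of Cfl1 and Actb, and is absent from Tmsb4x and Pfn1.

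Genes of the matrix that hold such copies were set beside the gene they share windows with. Over all annotated transcripts, Actg1 shared 1011 windows with 9330111N05Rik, a noncoding gene on chromosome 13, and its log2 difference of FLAG over WT in native libraries was -1.08 (SE 0.47, adjusted p = 0.298 by limma), where Actg1 was at 0.81. In crosslinked libraries the 2 genes were at 0.44 (SE 0.73 for 9330111N05Rik and 0.15 for Actg1). Single libraries weighed on 9330111N05Rik, whose log2 value ran from 2.58 to 4.60 in FLAG native and from 2.84 to 4.73 in WT crosslinked libraries. Tmsb10 shared 200 windows with Lrba, in native libraries at -0.29 (SE 0.17, adjusted p = 0.378 by limma), where Tmsb10 was at 0.97, and in crosslinked libraries at -0.09 (SE 0.09), where Tmsb10 was at 1.12. Actb shared 45 windows with both Gm15725, a pseudogene, and Lrrc58 on chromosome 16, and 3 with Gm20388. Gm15725 and Lrrc58 were at 1.90 and 2.08 in native libraries (adjusted p = 0.232 for both by limma), above the 1.45 of Actb, and Gm20388 was at 0.38. In crosslinked libraries Gm15725, Lrrc58 and Gm20388 were at 1.34, 1.20 and 0.26, beside 0.79 for Actb. Cfl1 shared 119 windows with Rnd2, at 1.14, and 82 with the pseudogene Gm6180, at 1.07, beside 1.15 for Cfl1 itself in native libraries, and in crosslinked libraries they were at 0.45 and 0.50, beside 0.66 for Cfl1. None of these 7 genes passed the threshold in the main fit of any comparison described below. The alternative fits, such as those with a library left out or with array weights, were not examined for them.

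The MEX-3 recognition element, the sequence bound by the nematode protein MEX-3, was searched on the sense strand of each 3' UTR. Its first part is any base but C, then G or T, then AG, and after a gap of 0 to 8 bases comes the second part, which is given in 2 forms in the study: T, any base but G, then TA in the methods, or T, any base but G, then AT in the results text. The matches are shown because the element is the sequence on which a readout of MEX3A binding bears most directly, with the matched bases in capitals. In the methods form, Tmsb4x and Actb held 1 match each.
Tmsb4x, chrX:167207418-167207444, minus strand: tacttcttTTAGCTGTTTAactttgta
Actb, chr5:142903765-142903792, minus strand: ctgttacTGAGCTGCGTTTTAcaccctt
In the form of the results text, Tmsb10 and Actb held 1 match each and Actg1 held 2 matches that overlap, of which the one beginning first is shown.
Tmsb10, chr6:72957380-72957407, minus strand: gggatattATAGAAAATTATttgtatga
Actb, chr5:142903466-142903493, minus strand: tctttttttaATAGTCATtccaagtatc
Actg1, chr11:120346124-120346151, minus strand: cttgatTTAGTCCTTAGTTCATgtggct
The element is frequent by letters alone, as the methods form was found in 74.24% and the other form in 73.69% of the 11983 annotated 3' UTRs. Among 3' UTRs of like length, the methods form was found in 50.5% for Tmsb4x, which held it, and in 71.81% for Actb, which held it. Cfl1 held neither form in a 3' UTR of 1708 nt, where 95.87% of 3' UTRs of like length held the methods form and 94.52% the other form, and Pfn1 held neither in 274 nt, where 42.01% and 38.7% did. A match is a description of letters and not of a bound site.

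The deposited values are on a log2 scale and have nearly the same distribution in every library, and raised from the log2 scale they sum to between 949427 and 949437 in each. The number of reads of each library is not given in the sources used here. The 6 genes together made up 0.015% of this sum in both WT crosslinked libraries, 0.027% and 0.029% in the FLAG crosslinked libraries, 0.023% to 0.053% in the WT native libraries and 0.047% to 0.139% in the FLAG native libraries. In FLAG native 1 and FLAG native 3, 329 and 178 genes lay at the lowest value of the library, against 1 to 3 genes in each of the other libraries. FLAG native 2 had the lowest quality weight in limma (0.189) and FLAG native 1 the next lowest (0.33). The main values that rest on FLAG native 2 are also given without it, which raised the native differences of FLAG over WT of all 6 genes. Leaving out FLAG native 1 lowered them, and these differences are given further below, but the other values are not repeated without it. Of the 8 neural stem cell markers checked, 7 (all but Hes5) were in the matrix, with a summed linear value of 1976 to 2792 per library. Of the 5 microglial markers, Aif1 and Tyrobp were not in the matrix and the other 3 summed to 28.8 to 36.6. The lists for oligodendrocytes, endothelium, mural cells and ependyma had 1 or 2 genes in the matrix, with sums of at most 7.12 in any library. Whether these differences in the libraries play a part in the results was not tested.

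Levels per kilobase of mRNA, on the linear scale, set Tmsb4x and Actb apart from the other genes in every group. In WT native libraries the mean was 120.7 ± 28.5 (SD, n = 3) for Tmsb4x and 89.2 ± 52.7 for Actb, which did not differ beyond their spread. Cfl1 (22.0 ± 7.12), Tmsb10 (14.6 ± 4.80), Pfn1 (14.4 ± 5.94) and Actg1 (9.42 ± 3.69) followed, and neighbours in this order overlapped. In WT crosslinked libraries the order below Actb (40.9 ± 4.04, SD, n = 2) and Tmsb4x (33.9 ± 9.10) was Pfn1 (9.40 ± 0.35), Cfl1 (7.34 ± 1.18), Actg1 (6.34 ± 0.99) and Tmsb10 (3.17 ± 0.74), of which only Cfl1 and Actg1 overlapped, so that Tmsb10 was the lowest of the 6 there but not in native libraries. In FLAG native libraries Tmsb4x reached 272.5 ± 82.3 (SD, n = 3) and Actb 252.1 ± 150.2, and Cfl1 53.2 ± 30.1, Tmsb10 29.0 ± 10.1, Pfn1 26.01 ± 8.38 and Actg1 15.97 ± 3.73 kept the order of WT native libraries. The means without FLAG native 2 were 319.8 ± 12.03 (SD, n = 2) for Tmsb4x and 327.3 ± 105.8 for Actb, which did not differ beyond their spread, and 67.1 ± 25.4 for Cfl1, 34.9 ± 1.14 for Tmsb10, 28.9 ± 9.57 for Pfn1 and 17.99 ± 1.81 for Actg1. The FLAG crosslinked libraries had 95.9 ± 39.2 (SD, n = 2) for Tmsb4x and 70.7 ± 6.74 for Actb, and 6.89 to 12.1 for the other 4 genes.

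The comparison of FLAG with WT asks which RNAs came down with tagged MEX3A beyond the nonspecific background. All 6 genes were higher on average in FLAG than in WT libraries under both protocols. In crosslinked libraries the log2 difference ran from 0.36 for Pfn1 to 1.46 for Tmsb4x with a median of 0.72, and in native libraries from 0.81 for Actg1 to 1.45 for Actb with a median of 1.06. The medians over all genes were -0.02 and -0.04. Sox11, the 1 of 4 neuroblast markers in the matrix (Dcx, Tubb3 and Stmn2 were not in it), moved in the same direction. Its linear value was 47.5 to 51.8 in FLAG crosslinked against 26.3 to 29.1 in WT crosslinked libraries, and 37.2 to 190 in FLAG native against 16.4 to 38.9 in WT native libraries. Its log2 difference was 0.84 (SE 0.10, adjusted p = 0.315 by limma) and 2.07 (SE 0.58, adjusted p = 0.232 by limma), and 2.80 in native libraries without FLAG native 2. In crosslinked libraries the ependymal sum was also higher in FLAG (1.49 to 1.56 against 1.01 to 1.18), and the oligodendrocyte, endothelial and mural sums were lower. The part of these markers in the differences of the 6 genes was not tested. Because the untagged and tagged cultures were compared after immunoprecipitation, and input RNA was not analysed here, more RNA bound to MEX3A and more of the RNA in the culture cannot be told apart, nor can fewer cells of a type and less RNA per cell.

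The beta-thymosins had the largest differences in crosslinked libraries. Tmsb4x stood at a log2 value of 5.71 and 6.57 in FLAG crosslinked 1 and 2, against 4.95 and 4.40 in WT crosslinked 1 and 2. It stood at 7.98, 7.09 and 7.90 in FLAG native 1, 2 and 3, against 6.81, 6.59 and 6.11 in WT native 1, 2 and 3. Every FLAG library therefore lay above every WT library of the same protocol, and the difference was 1.46 (SE 0.37, a 2.76-fold difference) in crosslinked and 1.15 (SE 0.28, 2.22-fold) in native libraries. Tmsb10, the shortest mRNA of the 6, stood at 1.98 and 2.48 in FLAG crosslinked against 0.87 and 1.35 in WT crosslinked libraries, a difference of 1.12 (SE 0.27, 2.17-fold). In native libraries it stood at 4.56, 3.58 and 4.62 in FLAG against 3.80, 3.08 and 2.98 in WT, a difference of 0.97 (SE 0.34, 1.95-fold). FLAG native 2 lay below WT native 1 for this gene, so the native groups overlapped.

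The measured differences of the 2 actins were unlike more in size than in pattern. Those of Actg1 are uncertain, as 95.31% of the windows of its longest transcript recur elsewhere, against 3.58% for Actb. Actb stood at 7.18 and 6.98 in FLAG crosslinked against 6.19 and 6.39 in WT crosslinked libraries, a difference of 0.79 (SE 0.13, 1.73-fold) with no overlap. In native libraries it stood at 9.59, 7.61 and 8.92 in FLAG against 7.14, 8.15 and 6.47 in WT, a difference of 1.45 (SE 0.53, 2.74-fold). FLAG native 2 lay below WT native 2, so the native groups overlapped, and the range within either native group exceeded 1.5 on the log2 scale. Actg1 stood at 3.98 and 4.14 in FLAG crosslinked against 3.78 and 3.46 in WT crosslinked libraries, a difference of 0.44 (SE 0.15, 1.35-fold) with no overlap. In native libraries it stood at 5.23, 4.54 and 5.03 in FLAG against 4.09, 4.71 and 3.58 in WT, a difference of 0.81 (SE 0.31, 1.75-fold), and FLAG native 2 again lay below WT native 2.

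Of the monomer- and filament-binding proteins, Cfl1 followed a pattern like that of Actb and Pfn1 had the smallest difference in crosslinked libraries. Cfl1 stood at 4.88 and 4.64 in FLAG crosslinked against 3.94 and 4.27 in WT crosslinked libraries, a difference of 0.66 (SE 0.16, 1.58-fold) with no overlap. In native libraries it stood at 7.65, 5.90 and 6.86 in FLAG against 5.54, 6.14 and 5.26 in WT, a difference of 1.15 (SE 0.41, 2.22-fold), and FLAG native 2 lay below WT native 2. Pfn1 stood at 3.42 and 3.33 in FLAG crosslinked against 2.98 and 3.05 in WT crosslinked libraries, a difference of 0.36 (SE 0.10, 1.28-fold). In native libraries it stood at 4.94, 4.13 and 4.25 in FLAG against 3.74, 4.09 and 2.78 in WT, a difference of 0.90 (SE 0.36, 1.87-fold). Neither protocol's groups overlapped for Pfn1, although FLAG native 2 exceeded WT native 2 by little.

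**Figure D2:**
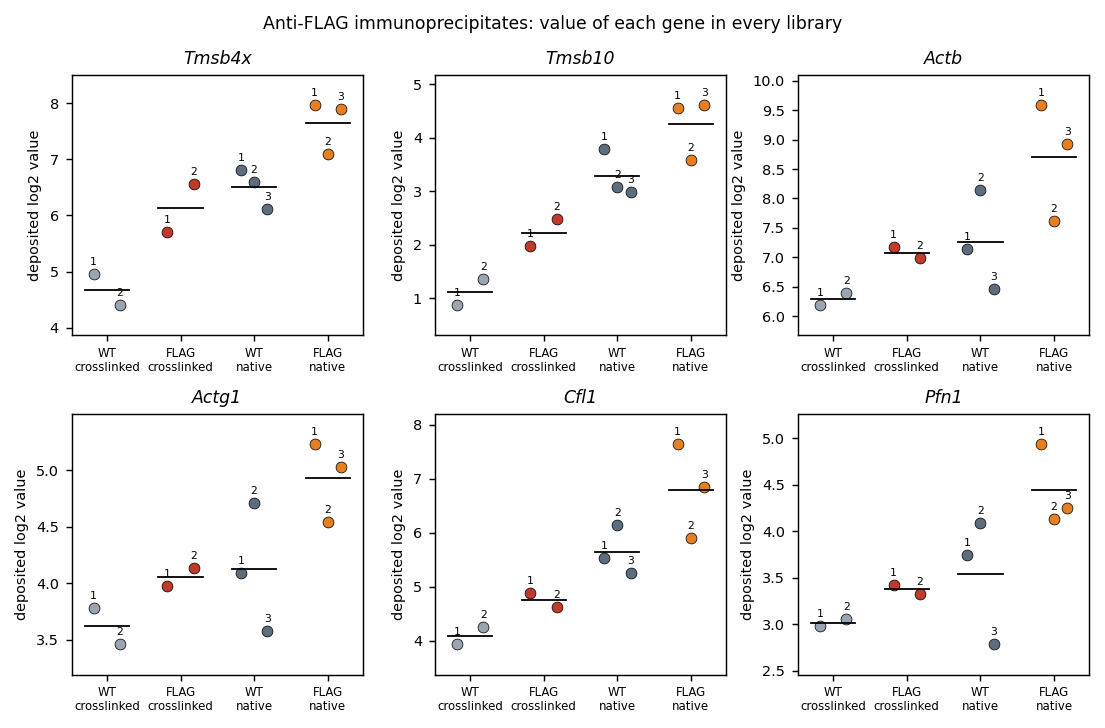
The plot of values by library gives the deposited log2 value (y axis) of each gene in the 4 groups, with 1 numbered point per replicate and a line at the group mean. FLAG points lie above WT points in crosslinked libraries for all 6 genes, FLAG native 2 is the lowest FLAG native library for each gene, and native libraries lie above crosslinked libraries of the same genotype except where WT native 3 falls to the crosslinked values for Actg1 and Pfn1.

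The groups did not overlap for 6 of 6 genes in crosslinked libraries, where 19.1% of all genes had every FLAG library above every WT library. They did not overlap for 2 of 6 genes in native libraries (Tmsb4x and Pfn1), where the share of all genes was 8.62%, and these 2 genes were also the ones without overlap under both protocols, where the share was 4.84%. With FLAG native 2 left out the native groups did not overlap for 6 of 6 genes, where the share of all genes was 25.1%, and neither protocol's groups overlapped for 6 of 6, where the share was 11.9%. By the rule of an adjusted p below 0.05 and a log2 difference above 0.58, none of the 6 was called higher in crosslinked or in native libraries, where 0% of all genes were called higher in either. At an unadjusted p below 0.05 and the same difference, 442 genes (2.78%) were higher in crosslinked and 1235 (7.77%) in native libraries. In a fit of all 10 libraries with protocol as a covariate, Tmsb4x was called higher and the other 5 were not, where 0.264% of all genes (42) were called higher. The call of Tmsb4x was lost with a minimum mean value of 10, with median centring, with the exonic share trend removed, with a replicate block, and with any WT native library, FLAG native 1 or 3, either FLAG crosslinked library or WT crosslinked 1 left out. Without FLAG native 2, Tmsb4x, Tmsb10, Actb and Cfl1 were called higher in that fit, where 3.25% of all genes were, and the same 4 genes in native libraries, where 9.12% were. With array weights, Tmsb4x, Actb, Actg1 and Cfl1 were called higher in native libraries, where 8.84% of all genes were called higher and 10.2% lower, and Tmsb4x, Tmsb10 and Cfl1 in the fit of all libraries, where 2.09% were called higher and 0.572% lower. In the fit of all libraries without weights, the differences were 1.28 (SE 0.23) for Tmsb4x, 1.19 (SE 0.38) for Actb, 1.03 (SE 0.25) for Tmsb10, 0.95 (SE 0.30) for Cfl1, 0.68 (SE 0.25) for Pfn1 and 0.66 (SE 0.22) for Actg1, of which Pfn1 was at 0.45 without WT native 3. With FLAG native 2 left out of it they were 1.45 for both Tmsb4x and Actb, 1.22 for Tmsb10, 1.17 for Cfl1, 0.75 for Actg1 and 0.74 for Pfn1.

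The native differences depended on single libraries in size but not in sign. Without FLAG native 2, the native log2 difference was 2.00 for Actb, 1.604 for Cfl1, 1.43 for Tmsb4x, 1.30 for Tmsb10, 1.06 for Pfn1 and 1.00 for Actg1. Without FLAG native 1, the library with the highest values of Actb, Actg1, Cfl1, Pfn1 and Tmsb4x, it was 1.01 for Actb, 0.99 for Tmsb4x, 0.82 for Tmsb10, 0.73 for Cfl1, 0.66 for Actg1 and 0.65 for Pfn1. WT native 2 held the highest WT native value of both actins, Cfl1 and Pfn1 but not of the thymosins, and without it Actb was at 1.90 and Actg1 at 1.10. Without WT native 3, Actg1 was at 0.53 and Pfn1 at 0.53. In crosslinked libraries Actg1 was at 0.28 without WT crosslinked 2.

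The comparison of crosslinked with native libraries asks how the levels of the 6 genes went with the protocol, within tagged and within untagged cultures. All 6 were lower on average in crosslinked than in native libraries of both genotypes, including the untagged cultures. In WT libraries Tmsb10 had the lowest log2 difference, at -2.18 (SE 0.37, 4.52-fold lower), followed by Tmsb4x at -1.83 (SE 0.35), Cfl1 at -1.55 (SE 0.44), Actb at -0.96 (SE 0.56), Pfn1 at -0.52 (SE 0.37) and Actg1 at -0.51 (SE 0.32). In FLAG libraries Cfl1 was at -2.04 (SE 0.44, 4.12-fold lower), Tmsb10 at -2.03 (SE 0.37), Actb at -1.63 (SE 0.56), Tmsb4x at -1.52 (SE 0.35), Pfn1 at -1.06 (SE 0.37) and Actg1 at -0.88 (SE 0.32). In WT cultures without WT native 2, Actb was at -0.51, Pfn1 at -0.25 and Actg1 at -0.21, and without WT native 3, Actb was at -1.36, Pfn1 at -0.90 and Actg1 at -0.78. The medians with every library were -1.25 and -1.57, against 0.02 and 0.11 over all genes. The differences in FLAG cultures without FLAG native 2 were -2.49 for Cfl1, -2.36 for Tmsb10, -2.18 for Actb, -1.80 for Tmsb4x, -1.22 for Pfn1 and -1.07 for Actg1, with a median of -1.99 against 0.13 over all genes.

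Every crosslinked library lay below every native library for 6 of 6 genes in FLAG cultures and for 4 of 6 in WT cultures, where 13.5% and 12.5% of all genes did. The exceptions in WT cultures were Actg1 and Pfn1, for which WT native 3 lay below a WT crosslinked library. These 4 genes without overlap in either genotype compare with 6.92% of all genes. With FLAG native 2 left out the FLAG groups again did not overlap for 6 of 6 genes, where 26.9% of all genes did not. None of the 6 was called lower by adjusted p in either genotype, where 0.289% of all genes were called lower in WT and 0.396% in FLAG cultures. Without FLAG native 2, all but Pfn1 were called lower in FLAG cultures, where 9.08% of all genes were, and both thymosins in WT cultures, where 0.805% of all genes were. With array weights, Tmsb4x, Tmsb10 and Cfl1 were called lower in both genotypes and Actb in FLAG cultures, where 2.67% of all genes were called lower in WT and 5.69% in FLAG cultures. With the exonic share trend removed Tmsb4x, Tmsb10 and Cfl1 were called lower in WT cultures, where 0.723% of all genes were, and Cfl1 alone in FLAG cultures, where 0.478% of all genes were. Both comparisons are from a single fit of the 4 groups, and each shares its libraries with the comparisons of FLAG with WT.

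The difference of FLAG over WT did not move in 1 direction from crosslinked to native libraries. It was larger in native libraries for Actb by 0.66, for Pfn1 by 0.54, for Cfl1 by 0.49 and for Actg1 by 0.37 on the log2 scale, and smaller for Tmsb4x (-0.31) and Tmsb10 (-0.15). When FLAG native 2 was left out it was larger in native libraries by 1.21 for Actb, 0.95 for Cfl1, 0.70 for Pfn1, 0.57 for Actg1 and 0.19 for Tmsb10, so that Tmsb10 changed sign, and Tmsb4x was at -0.03. No gene of the matrix was called for this interaction, with a smallest adjusted p of 0.97 by limma, and at an unadjusted p below 0.05 with a difference above 0.58, 37 genes were higher and 29 lower, none of them among the 6.

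**Figure D3:**
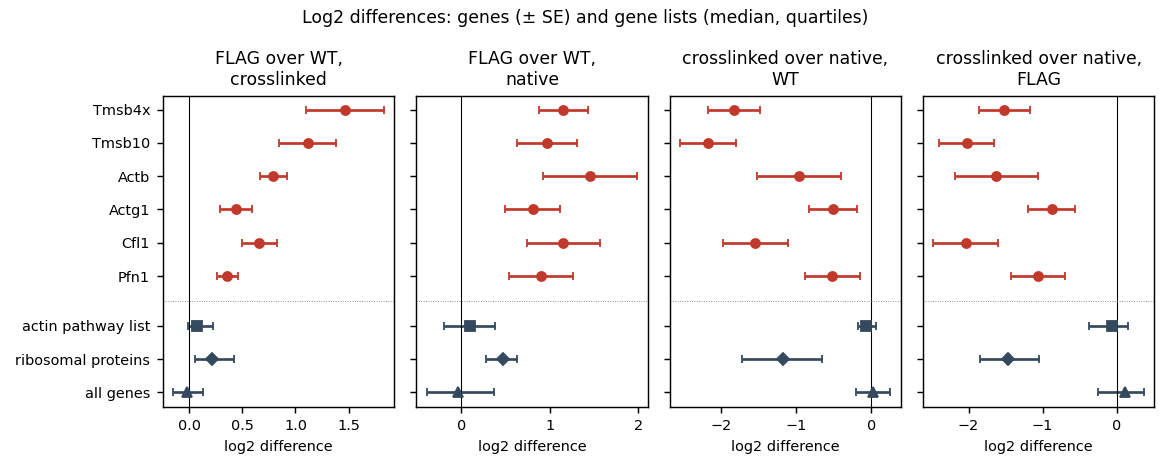
The plot of differences gives the log2 difference (x axis) of each of the 6 genes with its standard error in the 4 comparisons, and below the dotted line the median and quartiles of the 95 actin pathway genes, the 77 ribosomal protein genes and all 15899 genes. The 6 genes lie to the right of the list medians in the comparisons of FLAG with WT, Pfn1 in crosslinked libraries within the quartiles of the ribosomal protein genes, and in the comparisons of crosslinked with native libraries they spread around the ribosomal protein genes.

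Over the other genes of actin biology the differences centred near 0. A list of 113 symbols was used, of which 95 were in the matrix. Acta1, Actc1, Actg2 and the Tmsb15 genes were not in the matrix, so Acta2, the actin of smooth muscle, was the remaining paralog. The median log2 difference of FLAG over WT over the 95 genes was 0.08 in crosslinked and 0.10 in native libraries, where the 6 genes had medians of 0.72 and 1.06. The native medians without FLAG native 2 were 0.17 over the 95 genes and 1.37 over the 6. In the comparisons of crosslinked with native libraries it was -0.07 in WT and -0.06 in FLAG cultures, where the 6 genes had -1.25 and -1.57.

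The nearest relatives of the 6 genes had smaller differences of FLAG over WT than their counterparts in both protocols, though no test compared them. Acta2 was at -0.17 (SE 0.19) in crosslinked and -0.61 (SE 0.47) in native libraries. Pfn2, the other main profilin, was at 0.12 (SE 0.11) and 0.39 (SE 0.29), and Dstn, which encodes the actin-depolymerizing factor destrin, at 0.21 (SE 0.13) and 0.39 (SE 0.25). Cfl2, the cofilin of muscle, was at 0.48 (SE 0.10) and 0.92 (SE 0.33), the closest of the relatives to Cfl1. None of the 4 passed the threshold, with adjusted p-values by limma from 0.264 for Cfl2 in native libraries to 0.864 for Acta2 in crosslinked libraries. Single libraries weighed on the native values. In FLAG native libraries the log2 value ran from 0.15 to 1.78 for Acta2 and from 3.38 to 4.34 for Pfn2. The native difference of Acta2 was -0.95 without FLAG native 2.

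Of the 95 pathway genes, Tmod2, a tropomodulin that caps the slow-growing end of filaments, was called higher in the fit of all libraries (log2 difference 1.00, SE 0.18, adjusted p = 0.0468 by limma), where 0.264% of all genes were called. The call was lost with median centring, with the length trend removed, with a replicate block, and with any WT native library, FLAG native 1 or 3, FLAG crosslinked 2 or WT crosslinked 1 left out. Its mean log2 value was 5.03 ± 0.32 (SD, n = 2) in FLAG crosslinked against 4.25 ± 0.16 (n = 2) in WT crosslinked libraries, and 5.80 ± 0.49 (n = 3) in FLAG native against 4.66 ± 0.05 (n = 3) in WT native libraries. No pathway gene was called within a protocol, and at an unadjusted p below 0.05 with a difference above 0.58, 6 were higher and 0 lower in crosslinked libraries, and 10 were higher and 3 lower in native libraries. Of all genes, 2.78% were higher and 0.987% lower by this rule in crosslinked libraries, and 7.77% and 7.06% in native libraries. The genes named in the rest of this paragraph were chosen after their values were seen. Among the bundling proteins and membrane linkers, Marcks, a membrane-bound actin crosslinker, was at 1.30 (SE 0.15) and 1.88 (SE 0.56), and its relative Marcksl1 at 0.74 (SE 0.20) and 1.04 (SE 0.44) in crosslinked and native libraries. Among the monomer-binding proteins, Twf1, a twinfilin, was at 0.79 (SE 0.12) and 1.33 (SE 0.35). Among the formins and Ena/VASP proteins Inf2 was at 1.08 (SE 0.21) and 2.39 (SE 0.75), while the 12 genes of that group had medians of -0.01 and -0.32. Marcks, Twf1 and Inf2 did not pass the threshold, with adjusted p-values by limma of 0.233, 0.232 and 0.245 in native libraries. Lower values were also present. Flnc, a filamin that crosslinks filaments, was at -2.29 (SE 1.32) and -1.58 (SE 0.44), Tagln3, of the transgelin family, at -0.51 (SE 0.27) and -1.04 (SE 0.35), and Pls3, a plastin that bundles filaments, at -0.17 (SE 0.27) and -0.63 (SE 0.22). They did not pass the threshold either, with adjusted p-values by limma of 0.232, 0.255 and 0.268 in native libraries.

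In FLAG over WT, 59 of the 95 pathway genes lay above 0 in native and 63 in crosslinked libraries, against 7542 and 7357 of all 15899 genes. By role, the number of pathway genes above 0 in native libraries was 14 of 17 for monomer binding and turnover, 15 of 20 for the Arp2/3 complex and its activators, 2 of 12 for formins and Ena/VASP proteins, 6 of 12 for capping and severing, 11 of 19 for bundling proteins and membrane linkers, 9 of 9 for tropomyosins and nonmuscle myosin II, and 2 of 5 for a last group of Srf, its coactivators Mkl1 and Mkl2, Vcl and Zyx. In crosslinked libraries it was 11, 16, 3, 8, 14, 8 and 3 of the same groups in the same order. The group medians in native libraries lay between -0.32 and 0.37, and between -0.47 and 0.35 without FLAG native 2. Without FLAG native 2, the count of pathway genes called in native libraries was 14 higher and 5 lower of 95, where 9.12% of all genes were called higher and 10.8% lower, and in the fit of all libraries it was 6 higher and 0 lower, where 3.25% and 1.17% of all genes were called. In the comparison of crosslinked with native libraries no pathway gene was called in either genotype. At an unadjusted p below 0.05, 0 were higher and 5 lower in WT cultures and 1 was higher and 8 lower in FLAG cultures, where the shares of all genes were 2.85% and 3.55%, and 4.61% and 7.54%. Without FLAG native 2 the FLAG cultures had 4 called higher and 13 lower, where 7.57% and 9.08% of all genes were.

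Other sets of compact genes were set beside the 6. The 77 cytosolic ribosomal protein genes, which also have short mRNAs, had median log2 differences of FLAG over WT of 0.22 in crosslinked and 0.47 in native libraries, and of crosslinked over native of -1.18 in WT and -1.47 in FLAG cultures. In the last 2 comparisons the medians of the 6 genes, -1.25 and -1.57, lay close to these values. The 671 protein-coding genes with an mRNA under 1000 nt had medians of 0.09, 0.30, -0.26 and -0.41 in the same 4 comparisons, and the 1491 protein-coding genes with an exonic share of at least 50% had medians of 0.11, 0.50, 0.04 and -0.31. When FLAG native 2 was left out, the medians of FLAG over WT in native libraries and of crosslinked over native in FLAG cultures were 0.77 and -1.71 for the ribosomal protein genes, 0.44 and -0.60 for the genes with an mRNA under 1000 nt and 0.73 and -0.58 for the genes with an exonic share of at least 50%, beside 1.37 and -1.99 for the 6 genes.

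The median difference moved with the exonic share of the gene over protein-coding genes in general. In native libraries the median of FLAG over WT was -0.34 for the 1651 genes with an exonic share under 5% and 0.69 for the 503 genes with a share of 80% or more, and -0.49 and 0.97 without FLAG native 2. In crosslinked libraries the same medians were -0.06 and 0.23. Tmsb10, Actg1 and Pfn1 fall in the highest range, and their native differences (0.97, 0.81 and 0.90) lay within its quartiles of 0.29 and 1.11. Actg1 and Pfn1 also lay within the quartiles in crosslinked libraries (-0.04 and 0.59), whereas Tmsb10 lay above them. Tmsb4x and Actb, with shares from 60% to 80%, lay above the quartiles of their range in both protocols (-0.08 and 0.35 in crosslinked, 0.16 and 0.82 in native libraries), as did Cfl1 for shares from 40% to 60% (-0.10 and 0.22, -0.01 and 0.64). Whether the exonic share plays a part in the differences of the 6 genes was not tested. When its trend was removed from each library, the native differences of FLAG over WT were 0.94 for Actb, 0.77 for both Tmsb4x and Cfl1, 0.46 for Tmsb10, 0.39 for Pfn1 and 0.30 for Actg1, where they had been 1.45, 1.15, 1.15, 0.97, 0.90 and 0.81. In crosslinked libraries they were 1.42 for Tmsb4x, 0.97 for Tmsb10, 0.65 for Actb, 0.62 for Cfl1, 0.29 for Actg1 and 0.21 for Pfn1. In the fit of all libraries Tmsb10 was then at 0.66, Pfn1 at 0.32 and Actg1 at 0.29. The differences of crosslinked over native libraries of FLAG cultures were -0.67 for Pfn1 and -0.48 for Actg1 after this step, where they had been -1.06 and -0.88.

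**Figure D4:**
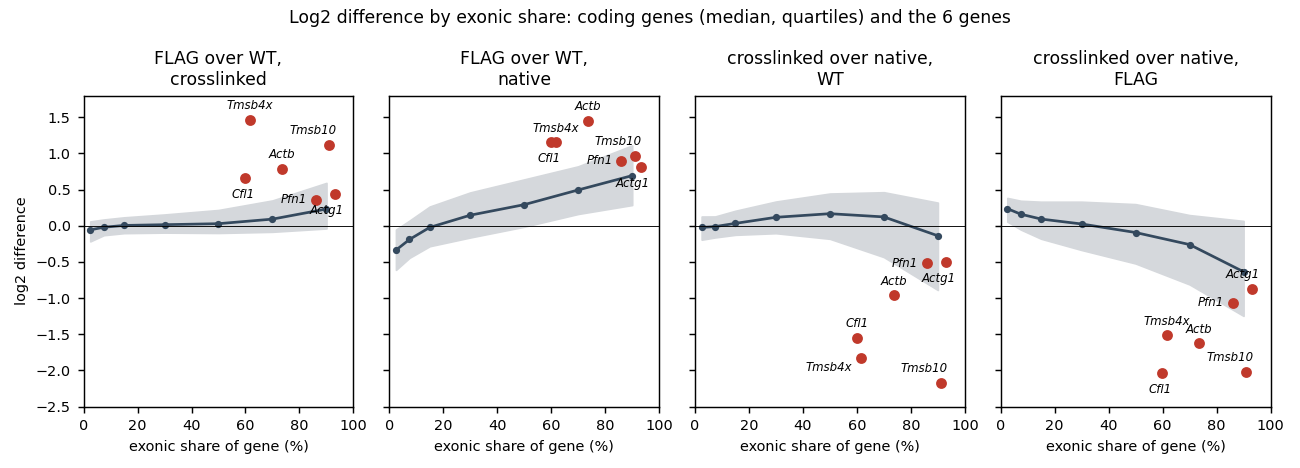
The plot by exonic share gives the log2 difference (y axis) against the percentage of the gene that is exon (x axis) in the 4 comparisons, with the median (line) and quartiles (grey) of protein-coding genes in 7 ranges of exonic share and the 6 genes as red points. In FLAG over WT native the line rises from -0.34 to 0.69 and Pfn1 lies inside the grey band. Tmsb10 and Actg1 are drawn beyond the right end of the band, and their values there are within the quartiles of the highest range. Tmsb4x, Actb and Cfl1 lie outside the band in all 4 comparisons.

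The 6 genes varied together over the 10 libraries. Pearson's r between pairs of them ran from 0.798 (Tmsb10 with Pfn1) to 0.965 (Actb with Actg1), as a description over points that share libraries and their normalisation. After the group means were subtracted, r was 0.964 for Actb with Cfl1, 0.886 for Actb with Actg1 and 0.704 for Tmsb4x with Tmsb10, and 0.339 for Tmsb10 with Actg1. The protein-coding genes outside the 6 with the profile most like their mean were Dbi (r = 0.989), Amz1 (0.988), Psmd8 (0.985), Rnf5 (0.985) and Rhoc (0.982). Their mRNAs had 569, 4037, 1540, 1238 and 1202 nt, and exons covered 17.95% to 57.04% of them. Such likeness was common, as 570 genes had an r of at least 0.9 to the mean profile of the 6 genes, of which 32 were ribosomal protein genes.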

How the data were processed

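RNA from anti-FLAG immunoprecipitates was read as single 75-base reads from stranded libraries made with random hexamers. The methods of the study name Cutadapt and Trimmomatic for trimming, HISAT2 for mapping to GRCm38, featureCounts with GENCODE M16 for counting and DESeq2 for normalization, and the submitters' processing notes name limma. The deposited matrix holds log2 values of a filtered set of genes, made by the authors, with replicates kept apart. The depth of each library is not given in the sources used here, and the number of libraries limits the precision. Apart from the lowest values, sorted values differ between libraries by at most 0.14, as after quantile normalization, which removes any difference in the total of recovered RNA.

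The log2 values were fitted over all 15899 genes with lmFit and eBayes with a trend (limma 3.58.1, R 4.3.3). Genes were called at a Benjamini-Hochberg adjusted p below 0.05 and an absolute log2 difference above 0.58. FLAG and WT were compared within each protocol and in all libraries with protocol as a covariate, and protocols within genotypes in a fit of 4 groups. The fits were tested on simulated data. Lengths, exons, 3' UTRs and windows came from GENCODE M21 and GRCm38, in which 15864 of 15899 genes were found. No protein sequence was used here. No library was left out of the main fits.

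The 6 genes and the gene lists were chosen with earlier results of these data known. The text names the 6 genes, the 5 protein-coding genes most correlated with their mean profile, their detected paralogs with Pfn2, Cfl2 and Dstn, called pathway genes, and up to 5 genes sharing windows with each, and says where others were chosen after their values were seen. The alternatives were a pseudocount of 1, a minimum mean linear value of 10, median centring, quantile normalization, removal of the length trend in 20 bins, a replicate block, array weights, each library left out, other fits, other transcripts and the other motif form. Removal of the exonic share trend, crossed replicate numbers, a replicate block within genotype, windows of the principal mRNA, and the medians, levels, interaction, counts without overlap and marker values that leave out FLAG native 2 were added after the data were seen.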

Additional observations from a re-analysis of the deposited data

How the results depend on the processing

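The log2 differences of the 6 genes in 5 comparisons kept their sign under every alternative run. All 240 values from leaving out a library moved by less than the spread between replicates, but this is no measure of robustness. With groups of 2 or 3 libraries, leaving out 1 cannot move a difference within a protocol beyond that spread. Libraries of the other genotype do not enter the comparisons of protocols. Of the 282 values from alternatives other than leaving out a library, some of which refit the same group means, 277 moved by less than this spread. The other 5 came from removing the trend on exonic share, which left 0.65 for Actb and 0.21 for Pfn1 in FLAG over WT crosslinked, 0.30 for Actg1 in FLAG over WT native, and -0.48 for Actg1 and -0.67 for Pfn1 in crosslinked over native in FLAG cultures. The count of actin pathway genes called in FLAG over WT native (0) was 17 with array weights, where 8.84% of all genes were called higher and 10.2% lower, and 0 to 19 with each library left out. In all libraries (1) it was 0 with median centring, 0 with the length trend removed, 0 with a replicate block, 5 with array weights, where 2.09% of all genes were called higher and 0.572% lower, and 0 to 6 with each library left out, being 6 without FLAG native 2 and 3 without WT crosslinked 2. In crosslinked over native it was 1 with the exonic share trend removed and 3 with array weights in WT cultures (0), where 0.723% and 2.67% of all genes were called lower, and 9 with array weights, 8 of them lower, where 5.69% of all genes were called lower, and 0 to 17 with each library left out in FLAG cultures (0), the 17 being without FLAG native 2. No alternative called a pathway gene in FLAG over WT crosslinked or for the interaction. Same-numbered FLAG and WT libraries deviated in opposite directions (r = -0.149, -0.43 and -0.167 native, -0.274 crosslinked). With groups of 2 or 3 libraries this cannot settle whether replicate numbers pair FLAG with WT libraries. Same-numbered crosslinked and native libraries of a genotype deviated together (r = 0.154 to 0.388, 2 pairs in each genotype), and the sources used here do not say that they share a culture. A replicate block within genotype left 0 pathway genes and 0 of the 6 genes called in either comparison of protocols, with Actg1 at -0.78 and Pfn1 at -0.90 in WT cultures, and the replicate block left 0 pathway genes called in each of the 5 comparisons. With the crosslinked numbers crossed, the count in FLAG over WT crosslinked was also 0. The share of repeated windows was 13.65% for Tmsb10 in the transcript with the longest coding sequence, and over all transcripts 23.17% for Tmsb10, 2.18% for Actb, 58.53% for Actg1 and 9.55% for Cfl1. The form of the recognition element in the results text gave 0 matches for Tmsb4x, 1 for Tmsb10 and 2 for Actg1, where the methods form gave 1, 0 and 0. Low values cannot be set against a read depth for each library, so the precision of Tmsb10, the lowest of the 6 in crosslinked libraries, is not known.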
